A study of Mus musculus with 8 samples.

Results

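The genes described here are 45 ligands, receptors, antagonists and intracellular regulators of Wnt signalling, measured in lumbar intervertebral discs of female BALB/c mice. They were chosen by name, with earlier results of these data known. On the arrays 94 probe sets, of 45101, are annotated to exactly 1 of these genes. All 45 genes, of 18193 measured, had at least 1 such probe set. Discs came from immunized mice (5 samples) and from age-matched naive mice (3 samples). The immunized mice had received cartilage proteoglycan, 100 µg of protein, together with 2 mg of adjuvant (dimethyldioctadecylammonium bromide, DDA) in injections given on days 0, 21 and 42, which leads to an autoimmune inflammation of the spine called proteoglycan-induced spondylitis. The labels describe no mice given adjuvant alone, so proteoglycan and adjuvant cannot be told apart here, and the age in weeks and the day of sampling are not given in the sources used here. Each sample was RNA of 6 pooled discs, and the sample numbers in the labels of immunized replicate 1 and naive replicate 3 each join 2 numbers. The comparison asks which of these genes differ between discs of immunized and naive mice.

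Wnt proteins are lipid-modified secreted ligands that bind Frizzled receptors. With the co-receptors Lrp5 and Lrp6 they keep a destruction complex, built on Axin, from degrading beta-catenin, which then acts with TCF/LEF factors in the nucleus; other Wnts act through planar polarity or calcium signals without beta-catenin. Secreted antagonists bind either the ligands (the Sfrp family, Frzb and Wif1) or the co-receptors (Dkk1 and Sost). In the skeleton this pathway is known for raising bone formation and for governing the maturation of chondrocytes, and Dkk1 and sclerostin, the product of Sost, are studied as brakes on new bone in spondyloarthropathy.

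Values are log2 expression from robust multi-array averaging (RMA), with the median over the 8 arrays set to 0 for each probe set. A difference of 1 is therefore a factor of 2, and no gene's level can be set against that of another gene. Only a coarse level can still be read from the spacing of the printed values. The spacing can miss an array at a lower level, so these levels are approximate. The lowest array of a probe set was at 8 or more (log2) in 26.6% of the Wnt probe sets (25), against 32.5% of all probe sets. It lay below 4 in 4.3% (4), against 10.8% of all, and between these in the other 65. At least 1 probe set at 8 or more in all 8 arrays was found for 8560 of the 18193 genes. It was found for 13 of 14 chondrocyte markers, 6 of 8 nucleus pulposus and notochord markers and 6 of 8 annulus fibrosus and tendon markers. The same held for 10 of 10 skeletal muscle, 7 of 8 neutrophil and 6 of 6 osteocyte markers, so these levels do not single out disc tissue. Signal over background was not tested. On the first principal component of all genes (52.2% of the variance) immunized replicate 2 (-5.77) lay on the naive side of 0. The naive samples ran from -32.2 to -28.1 and the other immunized samples from 14.4 to 32.2. On the second component (19.7% of the variance) naive replicate 1 (-32.1) stood apart from naive replicates 2 and 3 (7.53 and 7.07). Immunized replicates 3 and 5 (-14.3 and -9.95) were negative there as well.

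Wnt genes that passed the test were lower in discs of immunized mice. Of the 45 genes 8 fell at an adjusted p under 0.05 in limma over all genes (17.8%, against 4.68% of all genes), namely the ligands Wnt4, Wnt5b, Wnt9a and Wnt11, the receptors Fzd7, Fzd8 and Lrp5, and the intracellular antagonist Nkd1. None of the 45 rose in limma (0 at an unadjusted p under 0.05 either), against 4.46% of all genes at the adjusted threshold. At an unadjusted p under 0.05 the number lower was 22, against 18.2% of all genes. In 16 of the 45 genes (35.6%, against 14.0% of all genes) all 5 immunized samples lay below all 3 naive samples, and in 0 did all lie above, against 9.39%. The difference was negative for 38 of the 45 (56.1% of all genes) and positive for 7. Its median was -0.34, against -0.04 over all genes. Fewer cells that carry a transcript and less of it per cell cannot be told apart in these bulk samples.

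At the adjusted threshold the calls rested on few samples. Without immunized replicates 1 to 5 in turn, 0, 12, 5, 6 and 2 of the 45 genes fell, and without naive replicates 1 to 3, 2, 0 and 0. Over all genes the share that fell in these settings moved as well, from 0.0220% without naive replicate 2 to 9.40% without immunized replicate 2. With both samples of joined numbers left out, 0 of the 45 genes and 0 of all 18193 genes fell in limma. At an unadjusted p under 0.05, 16 of the 45 genes were lower in that setting, against 2173 of all 18193 genes. After quantile normalization of the deposited values 4 fell (Fzd8, Nkd1, Wnt5b and Wnt9a), against 2.02% of all genes.

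**Figure D1:**
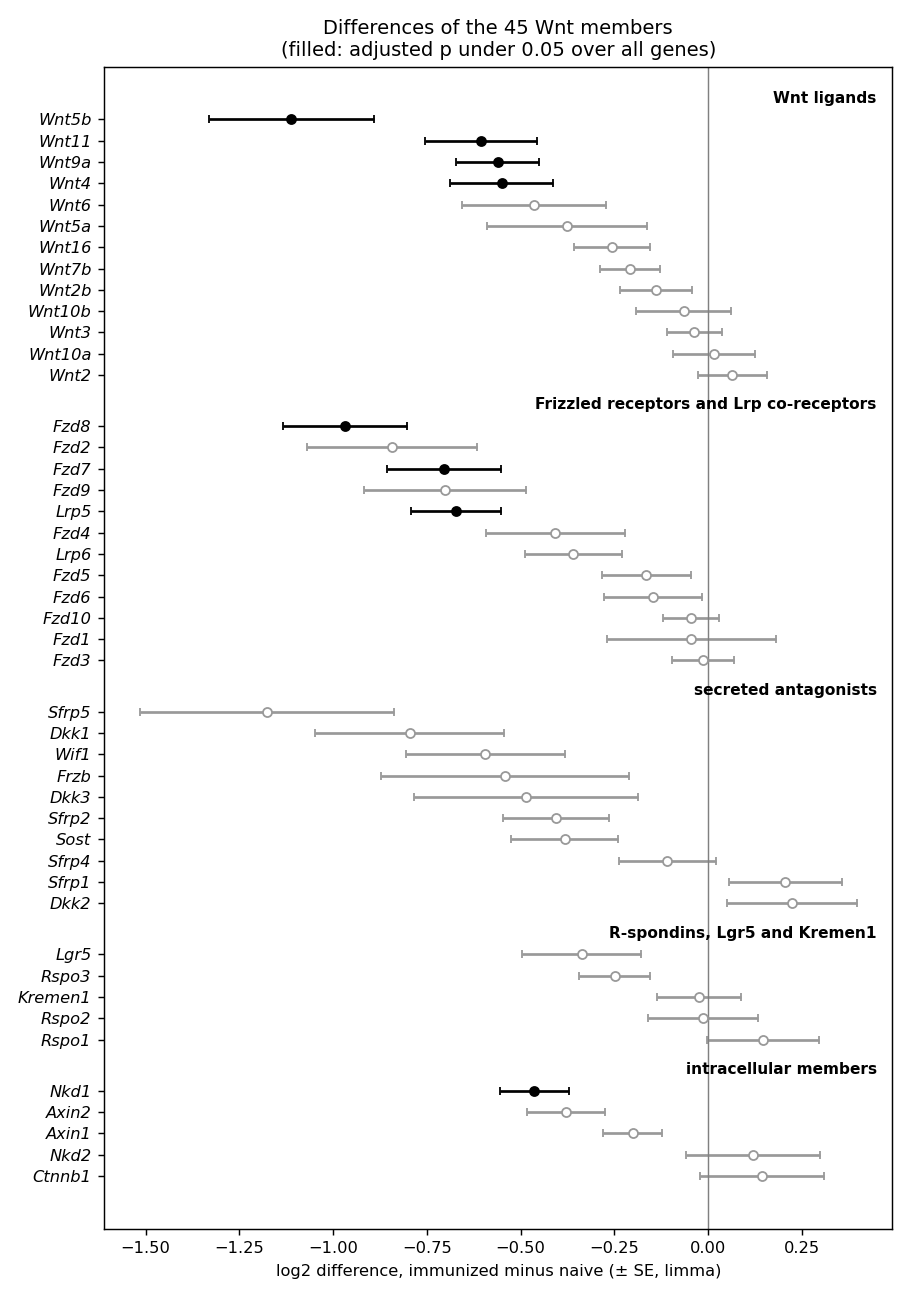
Log2 difference, immunized minus naive, of each of the 45 Wnt genes with its standard error from limma (horizontal axis), grouped by role and sorted within each role. Filled points are the 8 genes with an adjusted p under 0.05 over all genes, all of them negative; open points are the other 37, of which 7 are positive.

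Among the 13 ligands 4 fell, 11 had a negative difference, and the median was -0.26. Wnt5b, a ligand that mostly signals without beta-catenin and acts on growth plate chondrocytes, showed the largest difference of the ligands. It stood at -0.42, -0.10, -0.87, 0.10 and -0.12 in immunized replicates 1 to 5, against 1.15, 0.76 and 0.57 in naive replicates 1 to 3. The groups did not overlap, and Wnt5b was lower by a log2 difference of -1.11 ± 0.22 (SE, adjusted p = 0.0262), or 0.463 times the naive level. Wnt9a takes part in joint formation. It read -0.32, -0.19, -0.25, -0.01 and -0.32 in immunized discs, against 0.57, 0.25 and 0.21 in naive discs, a difference of -0.56 ± 0.11 (adjusted p = 0.0261). The immunized samples lay close together (SD 0.13, n = 5) and all below the naive samples, whose SD was 0.20 (n = 3).

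Wnt11, another ligand of the branch without beta-catenin, gave -0.21, 0.13, -0.17, -0.13 and -0.55 in immunized discs, against 0.22, 0.44 and 0.60 in naive discs. Immunized replicate 2 came within 0.1 of naive replicate 1, yet the groups stayed apart, and the difference was -0.61 ± 0.15 (adjusted p = 0.0408). Wnt4, which signals by both branches and promotes chondrocyte maturation, was at -0.36, 0.02, -0.56, -0.12 and -0.02 in immunized discs, against 0.40, 0.37 and 0.25 in naive discs. The difference in Wnt4 was -0.55 ± 0.14 (adjusted p = 0.0436), with no overlap. With 1 sample left out at a time, the difference stayed between -1.24 and -0.95 for Wnt5b, -0.63 and -0.45 for Wnt9a, -0.71 and -0.52 for Wnt11 and -0.61 and -0.46 for Wnt4. Wnt5b and Wnt9a still fell without immunized replicate 2, 3 or 4, and Wnt11 and Wnt4 only without immunized replicate 2, of the 8 settings that leave out 1 sample.

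**Figure D2:**
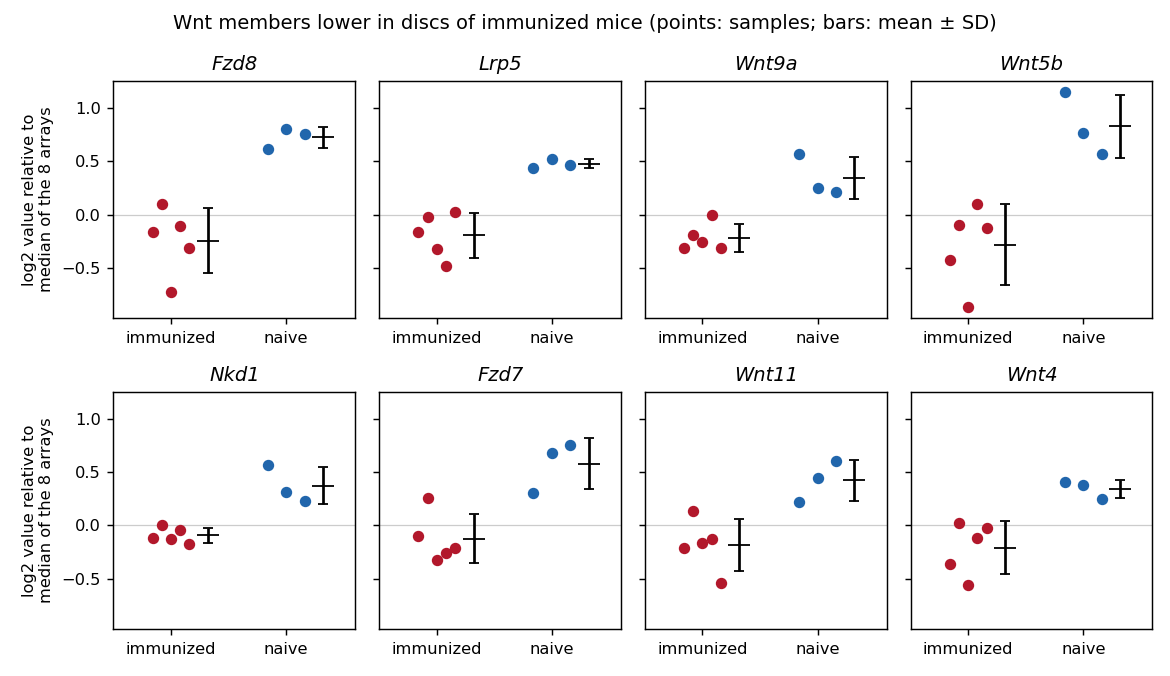
Log2 value relative to the median of the 8 arrays (vertical axis) of the 8 Wnt genes that fell, for each immunized (red) and naive (blue) sample; the bars beside the points are mean ± SD. In every panel the 5 immunized samples lie below the 3 naive samples, most closely so in Fzd7 and Wnt11.

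The other 9 ligands did not pass. In Wnt6 and Wnt7b the groups did not overlap either in the mean of the probe sets, but they overlapped in each single probe set. In Wnt6 naive replicate 1 stood at 1.80 in 1 probe set and at 0.15 in the other. Wnt6 lay between -0.23 and -0.02 in immunized discs, against 0.97, 0.17 and 0.02 in naive replicates 1 to 3, and its difference was -0.46 ± 0.19 with all samples (adjusted p = 0.140) and -0.17 without naive replicate 1. Wnt7b differed by -0.21 ± 0.08 (adjusted p = 0.120) and Wnt16, a ligand that protects cortical bone in mice, by -0.26 ± 0.10 (adjusted p = 0.125). Wnt5a, the close relative of Wnt5b, was lower than every naive sample in 4 immunized samples (-0.69 to -0.15) and above them in immunized replicate 4 (0.47), with a difference of -0.38 ± 0.21 (adjusted p = 0.263). Wnt2, Wnt2b, Wnt3, Wnt10a and Wnt10b lay between -0.14 and 0.06. Of 4 pairs of Wnt genes that neighbour each other in the RefSeq annotation (assembly GRCm38.p6), 1 held a gene that fell, Wnt9a, beside Wnt3a (-0.16 ± 0.08, adjusted p = 0.207). In the pairs Wnt6 and Wnt10a, Wnt9b and Wnt3, and Wnt10b and Wnt1 neither gene passed, and differences between neighbours were not tested.

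Promoter sequences are shown for the members whose start region holds a TCF/LEF motif, the letters that the partners of beta-catenin bind. RefSeq windows from 250 bases before to 50 bases after the start were available for 28 of the 45 genes (32 windows, GRCm38.p6). The motifs searched were CTTTGAT and CTTTGAA on both strands. They were found in 3 of the 32 windows (9.4%), against 8.7% of all 32851 windows, so these genes hold them at about the share of all genes. Wnt5b and Wnt11 fell; Dkk1, described below, did not pass. The match begins 71 bases before the start in Wnt5b (chr6:119449337-119449636, minus strand), 51 before it in Wnt11 (chr7:98834862-98835161, plus strand) and 117 before it in Dkk1 (chr19:30549447-30549746, minus strand). Each sequence runs 5′ to 3′ on the gene's strand, and capitals mark the motif, which in Wnt11 reads on the opposite strand (ATCAAAG). A match of letters is a description of the window and no evidence of binding.
Wnt5b: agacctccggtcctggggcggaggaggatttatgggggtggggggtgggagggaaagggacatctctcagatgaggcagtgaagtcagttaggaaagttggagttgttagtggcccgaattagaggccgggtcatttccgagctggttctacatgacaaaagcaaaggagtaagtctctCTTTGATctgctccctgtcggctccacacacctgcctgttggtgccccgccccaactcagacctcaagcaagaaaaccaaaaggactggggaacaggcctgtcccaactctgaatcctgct
Wnt11: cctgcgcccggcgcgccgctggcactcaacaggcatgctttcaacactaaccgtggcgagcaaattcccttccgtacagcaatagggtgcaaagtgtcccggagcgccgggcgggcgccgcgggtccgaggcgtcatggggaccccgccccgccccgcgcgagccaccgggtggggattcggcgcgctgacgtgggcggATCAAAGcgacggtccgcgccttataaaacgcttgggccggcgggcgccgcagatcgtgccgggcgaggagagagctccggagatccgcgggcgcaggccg
Dkk1: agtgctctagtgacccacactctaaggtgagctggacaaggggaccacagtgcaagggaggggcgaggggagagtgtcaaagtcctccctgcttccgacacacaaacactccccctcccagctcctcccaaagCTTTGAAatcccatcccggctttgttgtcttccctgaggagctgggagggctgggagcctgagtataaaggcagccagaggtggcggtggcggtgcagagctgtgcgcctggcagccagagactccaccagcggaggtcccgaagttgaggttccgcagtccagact

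All 12 Frizzled and Lrp genes had a negative difference, with a median of -0.38, and 3 fell. Fzd8, a Wnt receptor, was at -0.16, 0.10, -0.73, -0.11 and -0.32 in immunized discs, against 0.62, 0.80 and 0.76 in naive discs. The naive samples were tightly grouped (SD 0.10, n = 3) and well above every immunized sample. Fzd8 fell by 0.97 ± 0.17 on the log2 scale (adjusted p = 0.0195), the smallest adjusted p of the 45 genes. It was also the gene whose call held most often when 1 sample was left out, in 5 of 8 settings, the exceptions being naive replicates 2 and 3 and immunized replicate 1 (largest adjusted p = 0.0767).

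Lrp5, the co-receptor whose loss lowers bone mass in mice and people, was at -0.16, -0.02, -0.32, -0.49 and 0.02 in immunized discs, against 0.44, 0.52 and 0.47 in naive discs. Its difference was -0.67 ± 0.12 (adjusted p = 0.0214), or 0.628 times the naive level. Lrp5 passed without any 1 of immunized replicates 2 to 5, and not without immunized replicate 1 or any 1 naive sample (largest adjusted p = 0.0803). Fzd7, a receptor of both branches, read -0.10, 0.26, -0.32, -0.26 and -0.21 in immunized discs, against 0.31, 0.68 and 0.75 in naive discs. Immunized replicate 2 and naive replicate 1 nearly met, and the difference was -0.71 ± 0.15 (adjusted p = 0.0307). Of the settings that leave out 1 sample, Fzd7 passed without naive replicate 1 and without immunized replicate 2.

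The other 9 receptors lay on the same side of 0 but did not pass. Fzd2 came closest, at -0.49, 0.03, -0.90, -0.03 and -0.87 in immunized discs, against 0.46, 0.31 and 0.41 in naive discs. The groups of Fzd2 did not overlap, its immunized samples were spread widely (SD 0.44, n = 5), and the difference of -0.84 ± 0.23 missed the threshold (adjusted p = 0.0508); it passed without immunized replicate 2 or 4. With all samples Fzd2 also passed with the median of its probe sets, with those of the highest level class, without probe sets that had an array below 4 (log2), and with array weights. Fzd9, which acts in bone formation in mice, differed by -0.70 ± 0.22 (adjusted p = 0.0713), with immunized replicate 2 (0.18) above naive replicate 1 (0.16). Lrp6, the partner of Lrp5, differed by -0.36 ± 0.13 (adjusted p = 0.102). Fzd4 differed by -0.41 ± 0.19 (adjusted p = 0.172), and naive replicate 1 (-0.19) lay among the immunized samples. For Fzd1, Fzd3, Fzd5, Fzd6 and Fzd10 the differences were between -0.17 and -0.01.

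None of the 10 secreted antagonists passed in limma (5 lower and 0 higher at an unadjusted p under 0.05), although their median difference, -0.45, was the most negative of the 5 role groups. Sfrp5 binds Wnt ligands outside the cell and showed the largest difference of all 45 genes. It was at -0.44, 0.44, -0.57, -0.68 and -1.44 in immunized discs, against 0.47, 0.64 and 0.80 in naive discs. Immunized replicate 2 stood next to the naive samples and immunized replicate 5 far below, and the difference of -1.18 ± 0.34 had an adjusted p of 0.0603. It passed without immunized replicate 2 (adjusted p = 0.00770).

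Dkk1, which blocks Lrp5 and Lrp6, read -0.84, -0.43, -0.75, -0.08 and 0.12 in immunized discs, against 0.85, 0.14 and 0.21 in naive discs. Immunized replicate 5 and naive replicate 2 were almost level, although the groups did not overlap. The difference of -0.80 ± 0.25 did not pass (adjusted p = 0.0756), and it was -0.57 without naive replicate 1. Sost encodes sclerostin, an osteocyte product. It was at 0.12, -0.01, -0.04, -0.30 and -0.43 in immunized discs, against 0.41, 0.03 and 0.31 in naive discs, with immunized replicate 1 above naive replicate 2. Its difference was -0.38 ± 0.14 (adjusted p = 0.111).

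Frzb, a Wnt-binding antagonist of articular cartilage, stood at -0.10, 1.02, -0.30, -0.23 and -0.57 in immunized discs, against 0.10, 0.60 and 0.81 in naive discs. Immunized replicate 2 exceeded all naive samples and the other 4 immunized samples lay below them all, so that the difference was -0.54 ± 0.33 with all samples (adjusted p = 0.297) and -0.80 without that sample (adjusted p = 0.0229). Sfrp2, also Wnt-binding, was at 0.08, -0.08, -0.47, -0.20 and -0.53 in immunized discs, against 0.10, 0.16 and 0.24 in naive discs, with no overlap and a difference of -0.41 ± 0.14 (adjusted p = 0.0954). Wif1 did not overlap either and differed by -0.59 ± 0.21 (adjusted p = 0.101). Dkk3 differed by -0.49 ± 0.30 (adjusted p = 0.301) and Sfrp4 by -0.11 ± 0.13 (adjusted p = 0.604). Sfrp1 and Dkk2 had positive differences, 0.21 ± 0.15 (adjusted p = 0.379) and 0.22 ± 0.17 (adjusted p = 0.411). Sfrp1 was highest in immunized replicates 4 and 1 (0.46 and 0.34), and Dkk2 in immunized replicate 4 (0.56).

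The 5 genes around the R-spondins, ligands that bind Lgr receptors and thereby stabilise Frizzled receptors, gave 0 calls in limma (1 lower and 0 higher, unadjusted) and a median difference of -0.02. Rspo3 was at -0.10, -0.03, -0.17, -0.03 and -0.08 in immunized discs, against -0.06, 0.31 and 0.25 in naive discs, and naive replicate 1 fell among the immunized samples. The difference in Rspo3 was -0.25 ± 0.10 (adjusted p = 0.117). Lgr5, a receptor of R-spondins, read -0.07, -0.30, 0.07, -0.14 and 0.12 in immunized discs, against 0.64, 0.23 and -0.06 in naive discs. These groups overlapped and differed by -0.34 ± 0.16 (adjusted p = 0.182). Rspo1 was at 0.13, 0.40, -0.11, 0.30 and -0.22 in immunized discs, against -0.14, -0.10 and 0.10 in naive discs, a difference of 0.15 ± 0.15 (adjusted p = 0.537). Rspo2 (-0.01 ± 0.15) and Kremen1 (-0.02 ± 0.11), a co-receptor for Dkk1, differed by less than their standard errors.

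Of the 5 intracellular genes Nkd1 fell. It encodes a protein that binds Dishevelled and is induced by Wnt signalling as a feedback antagonist. Nkd1 was at -0.12, -0.002, -0.12, -0.04 and -0.18 in immunized discs, against 0.56, 0.31 and 0.23 in naive discs. The immunized samples were close together (SD 0.07, n = 5) and all lower, with a difference of -0.46 ± 0.09 (adjusted p = 0.0263) that passed without immunized replicate 2, 3 or 4 and in none of the other settings that leave out 1 sample. Axin2, a scaffold of the destruction complex and the most widely used feedback target of beta-catenin, read -0.12, -0.09, -0.35, -0.07 and 0.04 in immunized discs, against 0.41, 0.15 and 0.23 in naive discs. The groups did not overlap, but the difference of -0.38 ± 0.10 missed the threshold (adjusted p = 0.0530).

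Axin1, the constitutive scaffold, was at -0.13, 0.10, -0.02, -0.06 and -0.08 in immunized discs, against 0.16, 0.24 and 0.09 in naive discs (difference -0.20 ± 0.08, adjusted p = 0.121). Ctnnb1, which encodes beta-catenin itself, stood at 0.08, 0.09, -0.07, 0.11 and -0.26 in immunized discs, against -0.58, -0.04 and 0.16 in naive discs. Naive replicate 1 lay far below all other samples in Ctnnb1; the difference was 0.14 ± 0.16 with it (adjusted p = 0.583) and -0.07 without it, neither passing. Nkd2 differed by 0.12 ± 0.18 (adjusted p = 0.683).

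Probe sets of the same gene mostly agreed in sign. Of the 31 genes with several probe sets, all were negative in 23, all positive in 1 (Ctnnb1), and signs were mixed in 7. Tested singly, 13 of the 94 probe sets were lower and 0 higher in limma (1 higher at an unadjusted p under 0.05), against 3.21% and 3.61% of all probe sets that name 1 gene. Those 13 came from 11 genes, the 8 above and Fzd2, Fzd4 and Axin2, and 1 of them, for Axin2, had an array below 4 (log2). Both probe sets of Fzd8 (-1.04 ± 0.16 and -0.90 ± 0.19) and of Wnt5b (-1.14 ± 0.21 and -1.09 ± 0.23) passed. Of the 2 probe sets of Fzd7, 1 passed (-1.01 ± 0.17, adjusted p = 0.0188) and the other did not (-0.40 ± 0.19, adjusted p = 0.210). The 4 probe sets of Nkd1 were all negative, from -0.93 ± 0.26 to -0.19 ± 0.09, and naive replicate 1 reached 1.69 in the first of these. The 2 probe sets of Sost differed in size, at -0.60 ± 0.16 in the probe set where all immunized samples lay below the naive samples (adjusted p = 0.0569), and -0.17 ± 0.18 in the probe set where the groups overlapped. The 4 of Wnt5a ran from -0.92 ± 0.33 to 0.14 ± 0.19, the 3 of Kremen1 from -0.34 ± 0.13 to 0.29 ± 0.13 and the 5 of Sfrp1 from -0.05 ± 0.09 to 0.55 ± 0.23.

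**Figure D3:**
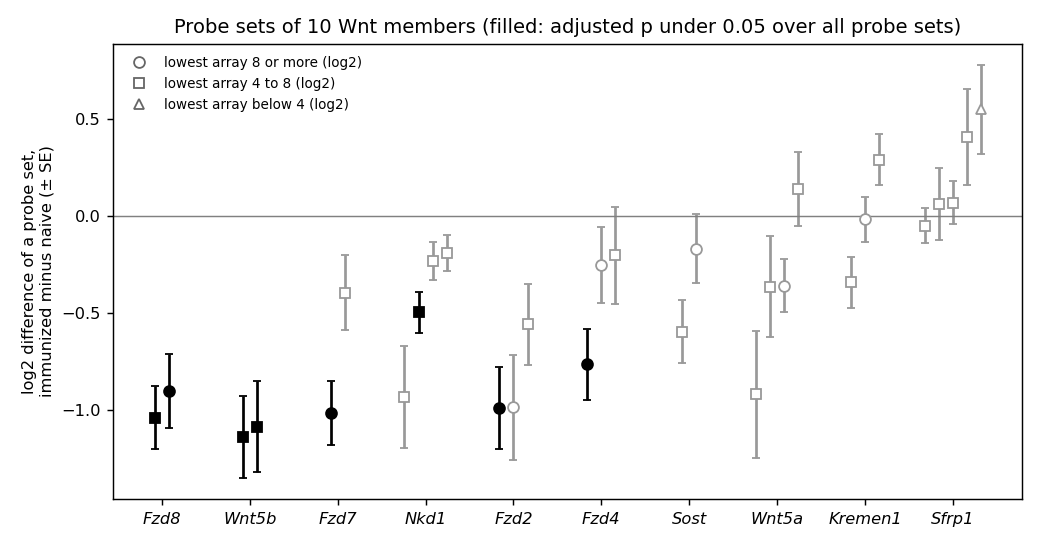
Log2 difference of single probe sets, immunized minus naive, with standard errors from limma (vertical axis) for 10 Wnt genes, chosen after their values were seen to show agreement and disagreement. Marker shape gives the level of the lowest array and filled markers an adjusted p under 0.05 over all probe sets: both probe sets of Fzd8 and Wnt5b pass, 1 each of Fzd7, Nkd1, Fzd2 and Fzd4, and those of Wnt5a, Kremen1 and Sfrp1 lie on both sides of 0.

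Among other genes of the pathway, 5 further lists with 106 measured genes, 15 fell and 1 rose, against 4.68% and 4.46% of all genes, and 90 did not pass. The difference was negative for 79 of them (56.1% of all genes), with a median of -0.18, against -0.04 over all genes. Among 23 genes of Wnt secretion, co-receptors and turnover at the surface, 2 fell: Notum, the enzyme that strips the lipid from Wnt ligands, by 1.09 ± 0.18 on the log2 scale (adjusted p = 0.0180), and Rspo4, another R-spondin, by 0.99 ± 0.15 (adjusted p = 0.0153). Sostdc1, a relative of Sost that binds Lrp co-receptors, differed by -1.25 ± 0.35 and the glypican gene Gpc4 by -0.34 ± 0.11, neither passing (adjusted p = 0.0582 and 0.0727). Of 36 genes of beta-catenin signalling in the cytoplasm and nucleus, 8 fell. They encode the beta-catenin coactivators Bcl9 (-0.49 ± 0.09) and Bcl9l (-0.34 ± 0.07), the transcription factors Tcf7l1 (-0.56 ± 0.14) and Tcf7l2 (-0.59 ± 0.14), the corepressor Tle2 (-0.79 ± 0.19), the beta-catenin inhibitor Ctnnbip1 (-0.45 ± 0.11), and Dvl2 (-0.44 ± 0.11) and its binding partner Dact3 (-0.34 ± 0.09). Activators and inhibitors of the pathway were thus both among the genes that fell.

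Of 24 genes of planar cell polarity and calcium signalling 3 fell: the formin gene Daam2 (-1.13 ± 0.17, adjusted p = 0.0144) and the polarity cadherins Celsr1 (-0.96 ± 0.19) and Celsr2 (-0.60 ± 0.14). Prickle1 (-0.24 ± 0.07) did not pass. Of 23 targets of beta-catenin 3 fell and 1 rose. Smpd3, a sphingomyelinase needed for the mineralisation of cartilage and bone in mice (-1.09 ± 0.16, adjusted p = 0.0143), Notum and the BMP pseudoreceptor gene Bambi (-0.65 ± 0.14) were lower, and Cd44, a hyaluronan receptor that leukocytes carry too, was higher by 0.72 ± 0.13 (adjusted p = 0.0214). The 6 remaining Wnt ligands gave 0 calls in limma (1 lower and 0 higher, unadjusted), the differences of the 4 with the largest statistics being -0.28 ± 0.10 (Wnt8a), -0.17 ± 0.08 (Wnt9b), -0.16 ± 0.08 (Wnt3a) and -0.06 ± 0.09 (Wnt7a). Without naive replicate 2 or naive replicate 3 the number of these 106 genes called was 0, without naive replicate 1 it was 4, and without immunized replicates 1 to 5 it was 2, 24, 8, 8 and 5, against 16 with all samples.

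The immunized samples differed among themselves in these genes. Immunized replicate 3 held the lowest immunized value in 16 of the 45 genes (35.6%, against 24.4% of all genes) and immunized replicate 2 the highest in 17 (37.8%, against 29.1% of all genes). The mean of the 45 genes was -0.11, 0.03, -0.29, -0.04 and -0.20 in immunized replicates 1 to 5, against 0.16, 0.22 and 0.23 in naive replicates 1 to 3. Every immunized sample was thus below every naive sample in this mean, with immunized replicate 2 nearest to them.

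**Figure D4:**
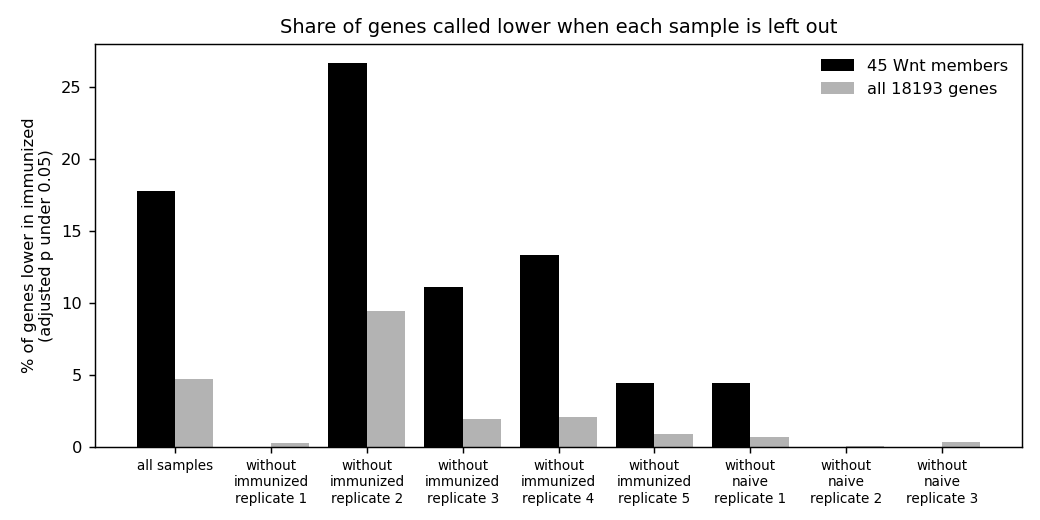
Percentage of genes lower in immunized discs at an adjusted p under 0.05 (vertical axis) among the 45 Wnt genes (black) and all 18193 genes (grey), with all samples and with each sample left out. The share of Wnt genes is 17.8% with all samples, 26.7% without immunized replicate 2 and 0 without immunized replicate 1 or naive replicate 2 or 3.

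Some cartilage markers fell as well. Of 14 chondrocyte markers 5 fell (4.68% of all genes), the other 9 did not pass, all 14 had a negative difference (56.1% of all genes) and the median was -0.84, with Col11a2 at -1.26 ± 0.27, Snorc at -1.30 ± 0.29 and Sox9 at -0.83 ± 0.19. Their mean was -0.43, 0.31, -0.91, -0.23 and -0.62 in immunized replicates 1 to 5, against 0.37, 0.62 and 0.64 in naive discs. Like the Wnt genes they were lowest in immunized replicate 3 and highest among immunized samples in replicate 2. The same order held for hypertrophic chondrocyte (-0.67 and 0.12) and keratinocyte markers (-0.10 and 0.01). Among immunized samples, the annulus fibrosus and tendon, osteoblast, osteocyte, synovial fibroblast and skeletal muscle means were also lowest in replicate 3. The nucleus pulposus and notochord mean was lowest in replicate 5 (-0.86). Of 7 hypertrophic chondrocyte markers 3 fell (Alpl, Pth1r and Ihh), of 8 nucleus pulposus and notochord markers 1 (Krt19, -2.01 ± 0.36), of 5 osteoblast markers 1 (Alpl again, -0.68 ± 0.16), and of 9 keratinocyte markers 2 (Krt1 and Trp63). None of 8 annulus fibrosus and tendon, 6 osteocyte, 9 osteoclast or 6 synovial fibroblast markers passed in limma (1 lower, 1 lower, 0 and 1 higher, unadjusted).

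The macrophage, neutrophil, plasma cell and T cell markers that passed were higher in immunized discs, as were 4.46% of all genes. Of 11 macrophage markers 6 rose, with Itgam at 1.81 ± 0.29, and of 8 neutrophil markers 3 (Cxcr2, S100a9 and Mmp8). Of 8 plasma cell markers 3 rose (Jchain, Ighm and Xbp1) and of 7 T cell markers 1 (Cd3g). All 11 macrophage and all 8 neutrophil markers had a positive difference. It was negative for 2 plasma cell markers (Tnfrsf17, -0.14, and Sdc1, -0.09) and 2 T cell markers (Cd8a, -0.14, and Cd4, -0.08), against 56.1% of all genes. In Cd8a all immunized samples lay below all naive samples. The macrophage mean was 0.66, -0.003, 0.22, 0.61 and 0.20 in immunized discs, against -0.48, -0.87 and -0.92 in naive discs. The B cell, erythroid, endothelial, skeletal muscle, adipocyte, and Schwann cell and neuron lists (5 to 10 genes each) gave 0 calls in limma. At an unadjusted p under 0.05, 2 of their genes were lower in the B cell list, and 1, 2, 0, 0 and 1 were higher in the other lists in that order. The part of cartilage, immune or other cells in the Wnt differences was not tested.

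**Figure D5:**
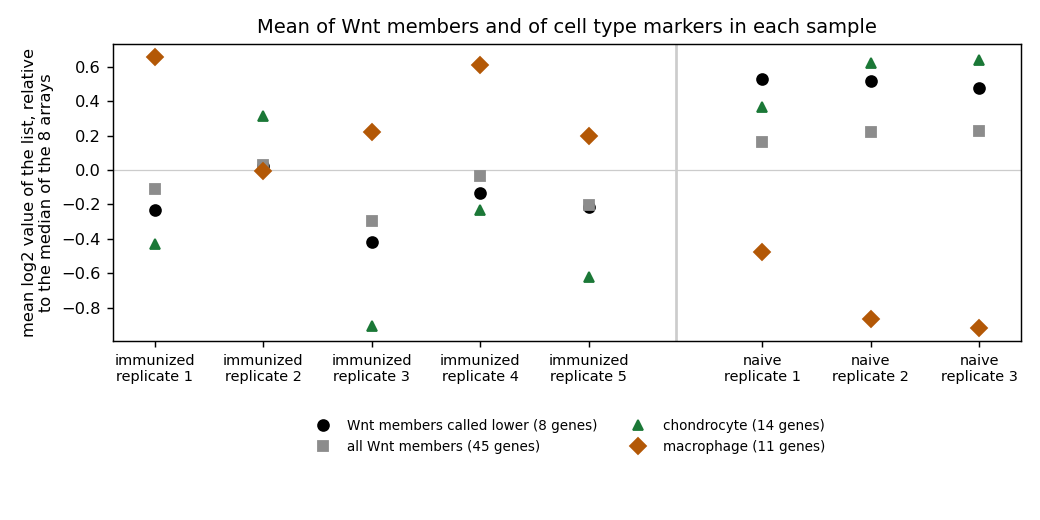
Mean log2 value relative to the median of the 8 arrays (vertical axis) in each immunized and naive sample for the 8 Wnt genes that fell, all 45 Wnt genes, 14 chondrocyte markers and 11 macrophage markers. Wnt genes and chondrocyte markers are both lowest in immunized replicate 3, as are other lists that are not shown, among them keratinocyte markers. The macrophage mean is below -0.4 in every naive sample.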

How the data were processed

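RNA of lumbar discs was measured on Affymetrix arrays in 5 immunized and 3 naive samples, grouped by their titles, which call the replicates biological. The authors deposited log2 values for every probe set, computed with RMA per the submitters' processing notes, which name no version. In the deposited log2 table every probe set has a median of 0 over the arrays (to within 5.0e-07), a centring that leaves group differences unchanged.

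Genes were named through the platform annotation and a RefSeq table (GRCm38.p6). Of 45101 probe sets, 34945 named 1 gene, 932 several and 9160 none, and 64 controls were left out; 204 probe sets had an identifier with no match there and kept the annotation's symbol. A gene's value was the mean of its probe sets. Groups were compared in limma 3.58.1 (lmFit and eBayes in R 4.3.3) without covariates; p-values are two-sided and were adjusted over 18193 genes by the Benjamini-Hochberg method, after a test on simulated data; the number of arrays limits the precision. Members, lists and motifs were chosen with earlier results of these data known. Values per sample are given for genes that passed, the 3 of each role with the largest moderated t, and Dkk1, Sost, Frzb, Ctnnb1 and Axin2; of other lists, up to 4 pathway genes and 3 markers by the same statistic. Ctnnbip1, Tcf7l1, Dvl2 and Dact3, which passed, were named after their values were seen, as were the sample values of Fzd2. The labels give no pairing, so numbers were not treated as pairs. Deviations from the group means correlated at -0.05, 0.24 and -0.10 between same-numbered samples 1 to 3. Between differently numbered samples the correlations ran from -0.38 to 0.33, and so few values cannot exclude pairing. Alternatives covered normalization, probe sets, variance model, array weights, samples and threshold; the omission of naive replicate 1 and immunized replicates 3 and 5 was chosen after seeing the data.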

Additional observations from a re-analysis of the deposited data

Results flagged for a closer look

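In Wnt6, immunized replicate 4 (-0.23) lay apart from the other 4 immunized samples (-0.08 to -0.02); the gap was 0.718 of the group's range, above the critical value of 0.71 for 5 samples. The whole range is small beside that of the naive samples of Wnt6 (0.02 to 0.97). This measure was applied only to the immunized samples, since groups of 3 are too small for it; among the 45 genes no other had an immunized sample so far from the rest, and chance alone flags about 1 group in 20.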

How the results depend on the processing

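The number of Wnt genes called higher was 0 in limma in every setting tried (0 or 1 at an unadjusted p under 0.05). The 8 lower calls became 4 after quantile normalization, 21 with array weights, 0 with the replicate number as a block, 0 without both samples of joined numbers, 1 (Fzd8) without naive replicate 1 and immunized replicates 3 and 5, 0 and 14 at adjusted p under 0.01 and 0.1, and 13 of 94 with probe sets tested singly. Under the same settings, the 1663 calls over all genes became 908, 5900, 7, 0, 218, 54, 3783 and 2384 (probe sets), and the 16 calls in the pathway lists 8, 43, 0, 0, 1, 0, 27 and 27. With each sample left out in turn the counts ranged from 0 to 12 (Wnt genes), 21 to 3003 (all genes) and 0 to 24 (pathway lists). The cause of these changes was not tested; without immunized replicate 2 all 3 counts were higher than with all samples. Counts stayed within 1.5 times when arrays were centred on their medians, without _x_at and _s_at probe sets, without probe sets that had an array below 4 (log2), with the median of probe sets, with probe sets of the highest level class, and with a trended and robust variance, where Axin2 passed and Fzd7 did not; Fzd2 passed in 3 of these 6 settings. The differences of the 8 genes that fell stayed negative in all settings, and none of the 45 genes that passed in any setting had changed sign against the fit with all samples. The replicate block leaves few residual degrees of freedom, and the labels do not say that the numbers pair the samples. Signal over background was not tested for any level class. The only probe set of Wnt3 had an array below 4 (log2).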
